A study of Mus musculus with 4 samples.

Results

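The genes of the cytosolic ribosomal proteins were described across 4 mouse lung cancer cell lines. Members were chosen by symbol, as Rpl or Rps followed by a number and at most a short suffix, or as Rplp0, Rplp1, Rplp2 or Rpsa, leaving out the Rps6k kinases and symbols containing -ps. This gave 82 genes of the 34147 distinct symbols in the expression table, 49 of the large and 33 of the small ribosomal subunit. Of these, 75 encode the core proteins and 7 encode their paralogs (Rpl3l, Rpl7l1, Rpl10l, Rpl22l1, Rpl39l, Rps27l and Rps4y2). All 82 were annotated as protein-coding, and they lay on 19 chromosomes, with 14 members on chromosome 7.

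All 4 lines came from 129S1/SvImJ mice whose floxed p53 alleles were deleted with a lentiviral Cre vector, and all were grown in culture. The metastatic group holds 2 lymph node lines, 238N1 and 482N1, and the non-metastatic group 2 lung lines, 368T1 and 394T4. Where 4 values are given below, they follow that order, and where 2 are set against 2, the metastatic lines come first. Each line was sequenced once, so no p-value below measures the spread within a line. Limma's p-values rest on the spread between lines of a group, drawn toward that seen across all genes. The labels do not say whether lines came from separate animals or give their age. Values are FPKM, fragments per kilobase of transcript relative to library depth, so levels of different genes are compared per length. Read totals are unknown, so no counting intervals are given.

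Ribosomal proteins are assembled with ribosomal RNA in the nucleolus into a large subunit, which joins amino acids, and a small subunit, which reads the mRNA. Cells need them in about equal numbers, and growing cells devote much of their mRNA to them. Their mRNAs are known as TOP mRNAs because they begin with a C followed by a terminal oligopyrimidine tract, through which mTORC1 and Larp1 control their translation. Mammalian genomes also carry many intronless copies of these genes, made by reverse transcription of their mRNAs, and most are processed pseudogenes.

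The labelled cell type was checked first. The epithelial genes Krt8, Krt18 and Cdh1 were high in every line, at 505 to 905, 890.1 to 1449.7 and 104 to 174 FPKM. Epcam stood at 4.13 and 4.76 against 54.0 and 34.3 FPKM. Of 14 markers of fibroblasts, smooth muscle, endothelium and blood cells, 7 were listed at 0 in all lines, among them Dcn, Lum, Pecam1, Ptprc, Cd3e and Hbb-b1, and the others reached at most 1.22 FPKM except Acta2, at 0.461, 16.3, 1.77 and 3.59 FPKM. A value of 0 in this table does not show that a gene was silent, since core ribosomal protein genes are also listed at 0. In such bulk RNA, fewer cells of a type and less RNA per cell cannot be told apart.

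Many member genes share nearly their whole coding sequence with copies elsewhere in the genome, so their levels are set beside those of the copies. A search of the mm9 genome with the members' coding sequences found 1022 copies of at least 90% identity over at least 80% of the coding sequence, 236 of them at 98% identity or more. At least 1 copy was found for 77 of the 82 members, with a median of 9 copies per member and a maximum of 79 for Rpl21. Of the copies, 630 had an entry of their own in the table, of which 460 were annotated as pseudogenes. Sums with copies below hold only the copies with an entry, and add FPKM of entries that can differ in length. How reads matching several places were counted is not given. A read may therefore enter a sum more than once, and the sums are not measured levels of a gene. Rpl19, Rps24 and Rpl38 are shown as chosen examples. Rpl19 and Rps24 are core genes listed at 0, beside copies with 1 and 4 different bases. Rpl38 is a core gene with a copy of identical coding sequence, which other members such as Rpl10 also had. Each line below gives 60 bases, 5′ to 3′ in the coding direction, with bases that differ in capitals.
Rpl19: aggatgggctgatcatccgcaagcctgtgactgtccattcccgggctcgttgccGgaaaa
Rpl19-ps11: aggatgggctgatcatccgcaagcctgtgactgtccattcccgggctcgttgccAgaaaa
Rps24: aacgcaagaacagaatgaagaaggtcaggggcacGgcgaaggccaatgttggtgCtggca
Rps24-ps3: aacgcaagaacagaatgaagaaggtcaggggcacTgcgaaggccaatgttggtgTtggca
Rpl38: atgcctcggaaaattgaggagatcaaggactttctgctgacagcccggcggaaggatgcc
Rpl38-ps2: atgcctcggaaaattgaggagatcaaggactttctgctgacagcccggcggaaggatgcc
Rpl19 lies at chr11:97888024-97891806 on the plus strand (mm9), and the stretch of Rpl19-ps11 at chr8:19493072-19493131 on the plus strand. Counting from 1 at the start codon, G191A was the only substitution between Rpl19 and this copy over 591 coding bases. Rps24 lies at chr14:25309903-25315368 on the plus strand, and the stretch of Rps24-ps3 at chrX:76440711-76440770 on the plus strand. Its copy differed by C207T, G273C, G360T and C380T over 402 coding bases, the last 2 of which are in the stretch printed. Rpl38 lies at chr11:114529838-114533645 on the plus strand, and the stretch of Rpl38-ps2 at chr6:140695634-140695693 on the minus strand, with 0 differences over 213 coding bases.

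The table's values at these copies were high where the genes' own values were low. Rpl19, a large subunit protein present in every ribosome, was listed at 0 FPKM in all 4 lines. Rpl19-ps11 stood at 567, 590.02, 972 and 927 FPKM, higher in both non-metastatic lines. Rps24, a small subunit protein whose human gene is mutated in Diamond-Blackfan anaemia, was likewise listed at 0 in all lines. Rps24-ps3 stood at 470.3, 432, 270.2 and 404 FPKM, higher in both metastatic lines and lowest in 368T1. Rpl38, a large subunit protein known in mice for its part in the translation of Hox mRNAs, stood at 47.7, 38.6, 61.3 and 64.4 FPKM, against 843, 861, 1109.5 and 1141 FPKM for Rpl38-ps2. Whether reads of the genes were counted at their copies was not tested, since reads were not analysed here.

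Values of exactly 0 are given apart. Besides Rpl19 and Rps24, the paralogs Rpl3l, Rpl10l and Rpl39l were listed at 0 in all 4 lines. In mice Rpl3l is known from heart and skeletal muscle, and Rpl10l and Rpl39l from the testis. Their own copies, where there were any, were also at 0. Rpl13a (chr7:52380928-52391787), a large subunit protein that also binds mRNAs in the interferon response, was listed at 458, 0, 0 and 393 FPKM, so that 482N1 and 368T1 had no value above 0. It was the only member at 0 in some lines and at 20 FPKM or more in another. Of the 5583 genes that reached 20 FPKM in any line, 5.25% were so listed. The members reaching 20 FPKM were not counted, so no share of the members is set beside this. One line of each group was at 0, so the groups overlapped. With its copies added, the sums for Rpl13a were 1367, 786, 1168 and 1481 FPKM, which left 482N1 the lowest line.

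The other 76 members were above 0 in every line. Their medians were 58.2, 46.7, 69.1 and 64.5 FPKM. Among the highest was Rpl8, a large subunit protein near the peptidyl transferase centre, at 745, 784, 1317 and 1135 FPKM. Rps15 of the small subunit was also high, at 728, 532, 1072 and 887 FPKM. So were Rplp0, the base of the P stalk that recruits elongation factors, at 654, 593, 1018 and 735 FPKM, and Rps3, a small subunit protein at the mRNA entry that also acts in DNA repair, at 426, 387, 539 and 491 FPKM. In each of these 4 genes 482N1 or 238N1 was the lowest line.

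The lowest members included core proteins. Rps27 stood at 3.77, 4.35, 4.83 and 7.62 FPKM, Rpl36a at 8.28, 6.60, 5.54 and 5.98 FPKM, Rpl30 at 8.18, 5.97, 10.7 and 9.58 FPKM and Rpl37 at 6.83, 7.22, 13.0 and 9.94 FPKM. The paralogs Rpl22l1 and Rps4y2 completed the 6 lowest, Rpl22l1 with a mean of 3.15 FPKM and the other with a mean of 9.07 FPKM. Of the core proteins of this set, each had at least 5 copies in the genome. Rps27 had 13, and with them its sums were 1005, 906, 1002 and 1154 FPKM.

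**Figure D1:**
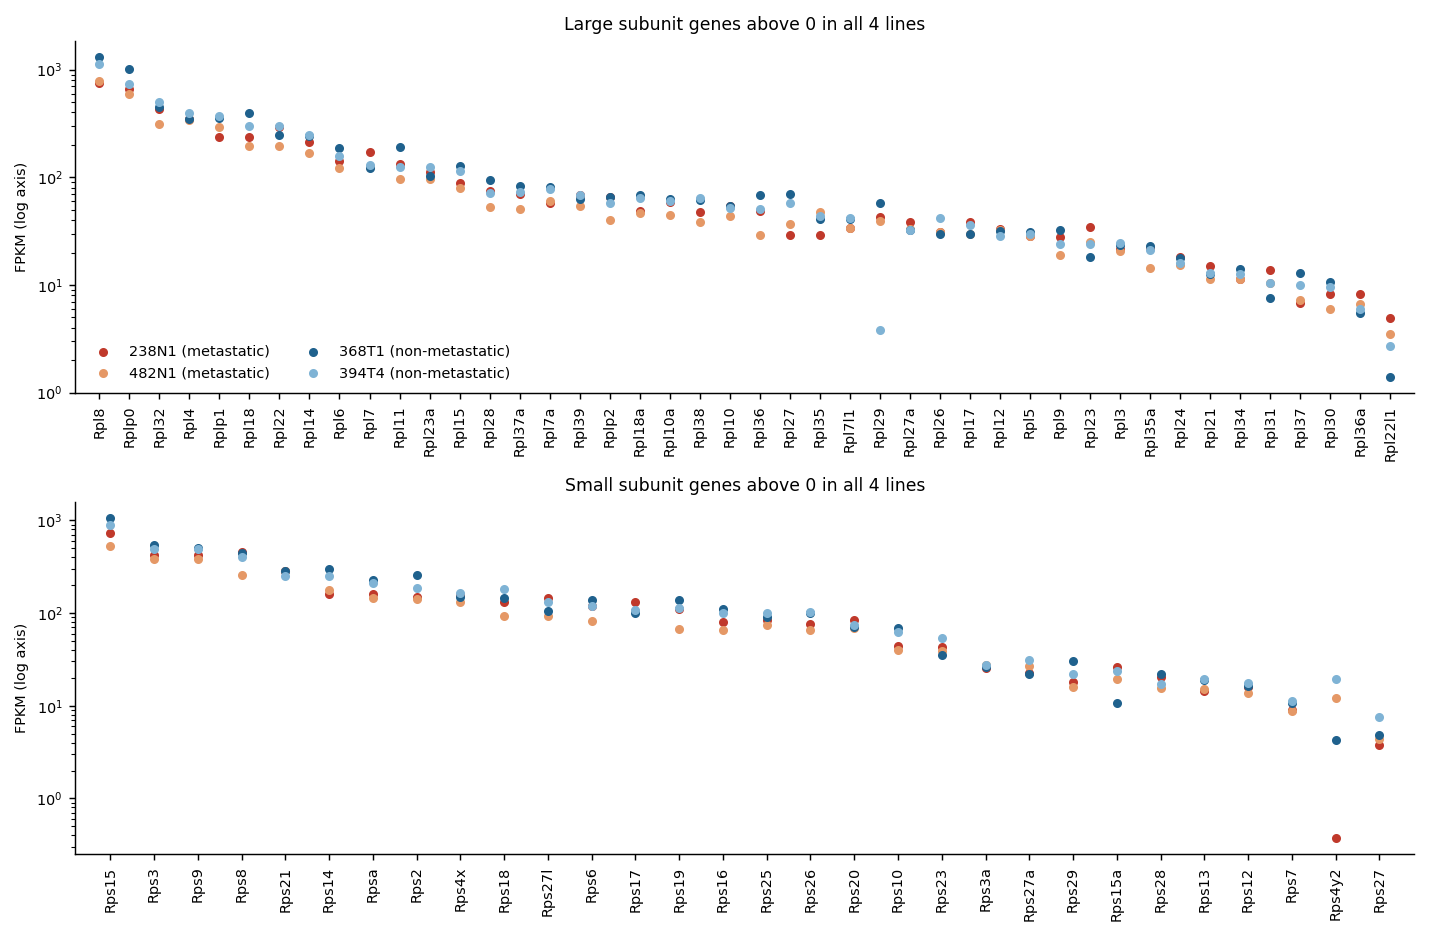
FPKM (log axis) of 74 of the 76 ribosomal protein genes above 0 in all 4 lines, large subunit above and small subunit below, ordered by mean, with 1 point per line. Means of the genes drawn run from 995 FPKM for Rpl8 to 3.15 FPKM for Rpl22l1, and of all 76 genes 66 keep their highest line under 2-fold of their lowest.

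Members with more copies had lower levels. The 10 members with 0 to 2 copies had a median of the mean level of 289 FPKM, the 30 with 3 to 9 copies 80.5 FPKM, and the 36 with 10 or more copies 33.9 FPKM. With the copies' values added to each gene, the medians were 625, 911 and 999 FPKM. Across the 76 genes, Spearman's rho between the mean FPKM and the number of copies was -0.34, and between the sum with copies and the number of copies 0.16. The genes share the same 4 libraries, and a gene with more copies also has more entries to add. The copies held more FPKM than the gene itself for 64 members. Among the 72 core members above 0, the gene's own entry made up a median of 7.37% of its sum with copies, and under 10% for 40 of them.

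Added up this way, the core proteins came closer to each other. Their median was 60.6 FPKM without and 992 FPKM with copies, the standard deviation of log2 FPKM between genes went from 1.87 to 1.34, and 56 of 72 in place of 4 reached 500 FPKM. For Rps28, a small subunit protein at the mRNA exit, the gene's own entry averaged 18.8 FPKM and its copies together 3696 FPKM. For Rpl39, a short protein of the exit tunnel, the entry averaged 63.6 FPKM and the copies 3982 FPKM. Rpl8 and Rps3, which had no copy by these limits, together with Rps9 and Rpl4, whose single copy had no entry, had levels of 995, 461, 448 and 357 FPKM that rest on their own entries alone. Rpl23 had 3 copies, of which 1 had an entry, at 0.177, 0, 0 and 0 FPKM, so its sums of 34.5, 25.1, 18.2 and 23.8 FPKM hold almost only its own entry.

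**Figure D2:**
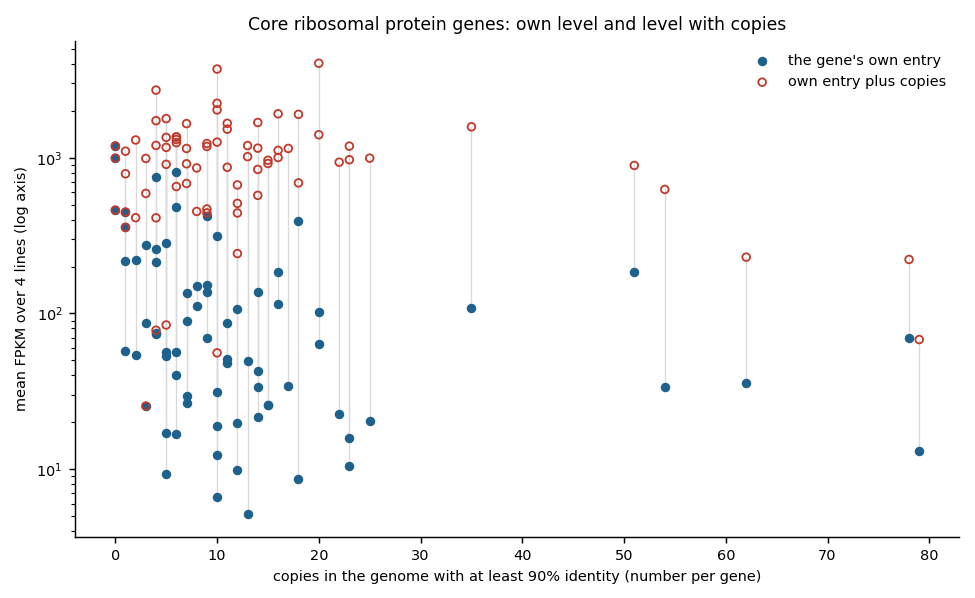
Mean FPKM over 4 lines (log axis) of the 75 core ribosomal protein genes against the number of genomic copies, as the gene's own entry (filled points, genes above 0) and with the copies that have an entry added (open points), joined by a line for each gene. Own levels go from a median of 289 FPKM at 0 to 2 copies to 33.9 FPKM at 10 or more for all members above 0, while sums with copies have medians of 625 and 999 FPKM.

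The order of the members was much the same in every line. Over the 6 pairs of lines, Spearman's rho across the 76 members lay between 0.973 and 0.986, against 0.901 to 0.975 across the 11454 genes above 0 in every line. These genes are not independent replicates. The median coefficient of variation over the 4 lines was 19.5% for the members and 22.9% for all such genes. Line 482N1 was the lowest for 48 of the 76 members (63.2%, against 29.98% of all genes) and the highest for 1 (1.32%, against 37.4%). Line 368T1 was the highest for 36 members (47.4%, against 26.4%). In the typical member, 238N1 was above 482N1 by 0.22 on the log2 scale and below 368T1 by 0.20, and 368T1 was above 394T4 by 0.03.

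**Figure D3:**
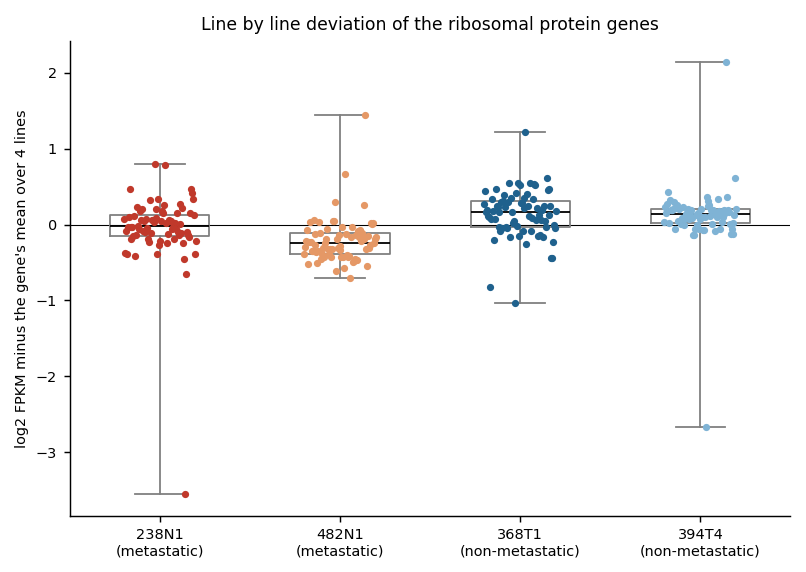
Deviation of log2 FPKM from each gene's mean over the 4 lines, for the 76 ribosomal protein genes above 0 in every line, with 1 point per gene, boxes for the quartiles and whiskers to the extremes. The points of 482N1 sit mostly below 0, where it is the lowest line for 48 genes, and single genes such as Rps4y2 in 238N1 and Rpl29 in 394T4 lie far from the rest.

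A few members departed from this common pattern. Rps4y2 (chr6:148303178-148304120), a paralog of Rps4x, varied most, at 0.376, 12.1, 4.31 and 19.5 FPKM. Each group held a high and a low line. Its coding sequence was 80.1% identical to that of Rps4x, which stood at 158, 132, 148 and 166 FPKM. Rpl29 (chr9:106331785-106333899), a large subunit protein also known to bind heparin, stood at 42.4, 38.9, 57.1 and 3.84 FPKM, low only in 394T4. The copies of Rpl29 Gm13841 and Gm8210, both 99.4% identical to it, had their highest values in 394T4, at 119 and 77.5 FPKM, while Gm17669, 97.97% identical to it, was lowest there, at 12.5, 9.47, 13.0 and 1.51 FPKM. With the 37 of its 62 copies that had an entry, Rpl29 summed to 226, 180.3, 251 and 262 FPKM, so 394T4 was then the highest line. Rps15a was lowest in 368T1, with values of 26.1, 19.2, 10.6 and 23.6 FPKM, and Rpl31 ran from 7.57 FPKM in 368T1 to 13.7 FPKM in 238N1.

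The study's contrast sets the metastatic lines from lymph nodes against the non-metastatic lines from the lung. No ribosomal protein gene passed limma's test over all genes, although most of the members stood lower in the metastatic lines. Of the 77 members tested, 62 had a negative fold change (80.5%, against 46.6% of the 12425 genes tested), and in 41 both metastatic lines were below both non-metastatic lines (53.2%, against 26.9%). In 5 members both metastatic lines were above (6.49%, against 28.3%). The median log2 fold change, metastatic minus non-metastatic, was -0.28 for the members and 0.05 for all genes tested. Limma called 0 members in either direction at an adjusted p under 0.05, where 0.161% of all genes were called (0.0483% lower and 0.113% higher), and the smallest adjusted p of a member was 0.328. At an unadjusted p under 0.05 limma found 15 members lower (19.5%, against 8.68% of all genes) and 0 higher (against 5.7%). Limma without the variance trend gave 5 lower at that level, and 6.49% of the members is near the share of all genes in that fit, 6.77%. It gave 0 higher (6.04% of all genes). Its robust form gave 15 lower and 0 higher (8.88% and 6.27% of all genes), with 0 past the adjusted threshold in both.

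Among the core members above 0 in all lines, the median was -0.26 for the 42 large subunit genes, of which 33 were negative, and -0.32 for the 30 small subunit genes, of which 26 were negative. The difference between the subunits was not tested. Both metastatic lines were below both others in 21 large and 19 small subunit genes. Of all genes tested, 46.6% were negative, and in 26.9% both metastatic lines were below both others. The share of the protein-coding FPKM sum taken by the members was 2.66%, 2.18%, 2.70% and 2.66%, lowest in 482N1. The metastatic lines averaged 2.42% ± 0.339 and the non-metastatic lines 2.68% ± 0.0290 (SD, n = 2 each), a difference of -0.257 percentage points. By a two-sided exact permutation test p was 0.667, and with 2 lines against 2 it cannot fall below 0.333. With the copies added both to the members and to the protein-coding sum, the shares were 17.2%, 14.3%, 16.6% and 16.2%, a difference of -0.583 percentage points.

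The scale of the libraries moved with this difference. The protein-coding FPKM sums were 419176, 413128, 492076 and 477456, lower in both metastatic lines. With every library scaled to that sum, the median log2 fold change of the members was -0.07 while that of all genes was 0.24, and 45 of the 77 members were negative (32.5% of all genes). At an unadjusted p under 0.05 limma then found 4 members lower (3.77% of all genes) and 1 higher (12.0%). This scaling shifts all genes of a library by nearly the same amount, so the place of the members among all genes hardly moves by construction.

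Single lines also moved the result. Without 482N1 the median of the members was -0.15, with 9 lower and 1 higher at an unadjusted p under 0.05 (6.15% and 3.4% of all genes). Without 238N1 it was -0.41, with 19 lower and 0 higher (10.3% and 10.1% of all genes). Without 368T1 it was -0.27, with 0 lower and 1 higher (2.12% and 2.49% of all genes). Without 394T4 it was -0.31, with 7 lower and 0 higher (4.79% and 4.68% of all genes). In these fits a lone line is assumed to vary like the lines of the other group. With copies added to each gene, 79 members were tested, the median was -0.29, 60 were negative (45.7% of all genes), and 14 were lower and 0 higher at an unadjusted p under 0.05 (8.64% and 5.83% of all genes).

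**Figure D4:**
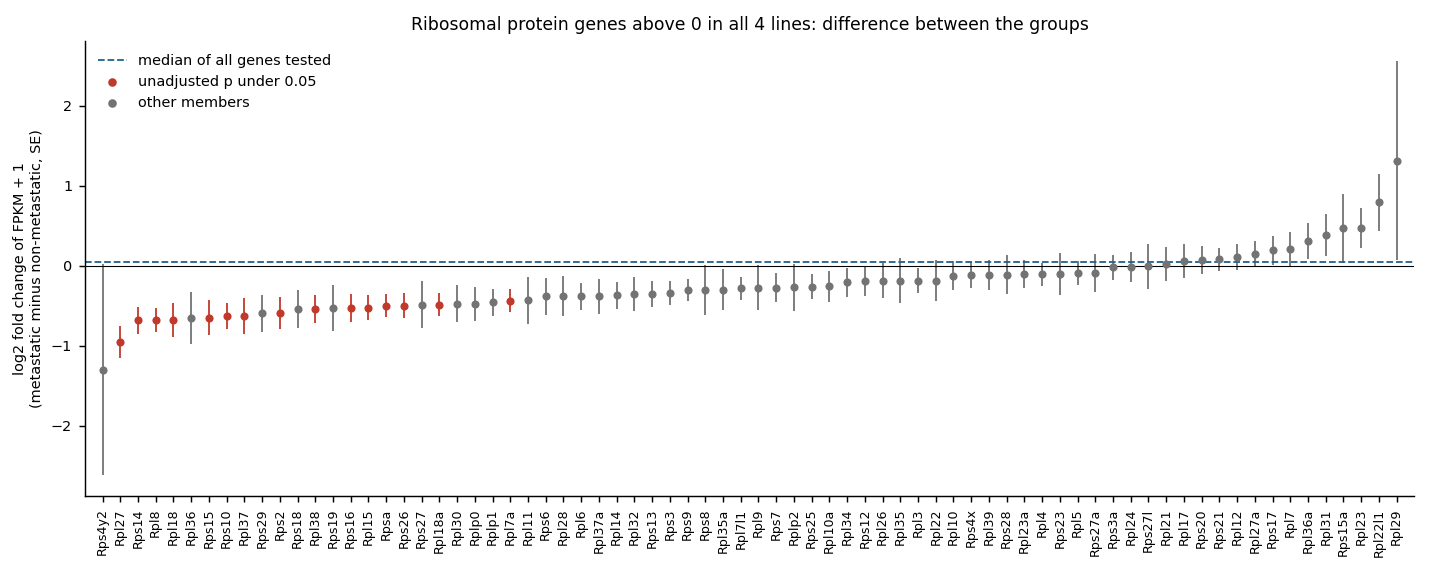
Log2 fold change of FPKM + 1 (metastatic minus non-metastatic, bars show the SE from limma, 2 lines a group) for 74 of the 76 ribosomal protein genes above 0 in all lines, ordered by size. Red points have an unadjusted p under 0.05, 15 in all and each below 0, none passed after adjustment, and the dashed line is the median of all genes tested, 0.05.

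Rpl27, Rps14, Rpl8 and 5 others described next had the 8 lowest log2 fold changes among those whose groups did not overlap. Rpl27 (chr11:101303612-101306843) of the large subunit stood at 28.9 and 36.5 against 69.3 and 58.2 FPKM. The 2 groups did not overlap, and the log2 fold change was -0.95 (SE 0.20; limma adjusted p = 0.328). Its own entry was 3.16% of the sum with its 11 copies, and that sum differed in the same way, at 1189 and 1122 against 2010.5 and 1783 FPKM (log2 fold change -0.71, SE 0.15; limma adjusted p = 0.321). Rps14, a small subunit protein whose human gene lies in the region lost in 5q- syndrome, stood at 160.2 and 177.0 against 296 and 248 FPKM (-0.68, SE 0.16; limma adjusted p = 0.332).

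Rpl8 (chr15:76734501-76736748) had no copy in the genome by these limits. Its values of 745 and 784 against 1317 and 1135 FPKM did not overlap (log2 fold change -0.68, SE 0.15; limma adjusted p = 0.330). Rps3, also highly expressed and without a copy, had a log2 fold change of -0.34 (SE 0.15), again with both metastatic lines below both others. Rpl18 (239 and 196 against 396 and 302 FPKM), Rps15, Rps10 (44.5 and 39.8 against 69.4 and 62.2 FPKM), Rpl36 (48.7 and 28.8 against 68.8 and 51.1 FPKM) and Rpl37 completed these 8, with log2 fold changes between -0.67 and -0.63. With copies added the groups of Rpl37 overlapped, at 91.3, 64.3, 103 and 78.6 FPKM (-0.23, SE 0.25). Those of the other genes among these 8 did not. Adding copies to Rpl19, which is at 0 itself, gave 836 and 847 against 1434 and 1345 FPKM (-0.72, SE 0.14; limma adjusted p = 0.321). Rps24, also at 0 itself, went the other way with its copies, at 529 and 486 against 300 and 452 FPKM (0.46, SE 0.24; limma adjusted p = 0.399).

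In 5 members both metastatic lines were above both others. The largest was Rpl22l1 (chr3:28704358-28706274), the paralog of Rpl22 that is known in mice to be repressed by Rpl22 and to stand in for it. It stood at 4.97 and 3.49 against 1.40 and 2.73 FPKM (log2 fold change 0.79, SE 0.36; limma adjusted p = 0.372). Its copy Gm15421, 99.5% identical to Rpl22l1, stood at 354 and 298 against 96.5 and 225 FPKM, and the sum of gene and copies gave a log2 fold change of 1.13 (SE 0.45; limma adjusted p = 0.353). The order of the lines was the same in both, with 238N1 highest and 368T1 lowest. Rpl22 itself stood at 296, 196, 249 and 301 FPKM, and its groups overlapped. Rpl23, one of the proteins that bind Mdm2, stood at 34.3 and 25.1 against 18.2 and 23.8 FPKM (0.48, SE 0.25; limma adjusted p = 0.397). Rpl36a, Rpl27a and Rpl12 had smaller log2 fold changes of 0.31, 0.15 and 0.11. With copies added these were 0.37, -0.21 and -0.24. The groups of Rpl36a and Rpl27a then overlapped. The sums for Rpl12 turned around, at 1804 and 1910 against 2293 and 2109 FPKM, with both metastatic lines below both others.

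Several members are known for roles beyond the ribosome or for special positions in it. Rpl5 and Rpl11, which with 5S RNA bind Mdm2 and so stabilise p53 when ribosome assembly fails, stood at 28.2, 28.7, 31.1 and 29.6 FPKM and at 133, 96.4, 189 and 124 FPKM. Rpl5 had the narrower spread, with a coefficient of variation of 4.25% against 28.7% for Rpl11. Rps6, the small subunit protein phosphorylated by the S6 kinases, stood at 119, 82.9, 139.5 and 120.5 FPKM, and the 2 groups did not overlap (-0.38, SE 0.23; limma adjusted p = 0.436). The stalk proteins Rplp1 and Rplp2 stood at 237, 295, 355 and 373 FPKM and at 65.9, 39.8, 66.3 and 58.0 FPKM. Rpsa, of the small subunit and also described as a laminin receptor, stood at 161 and 147 against 225 and 210.2 FPKM without overlap (-0.50, SE 0.14; limma adjusted p = 0.335).

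Among other members, Rps19, whose human gene is the one most often mutated in Diamond-Blackfan anaemia, stood at 109 and 67.5 against 138 and 113 FPKM. Rps25, needed by several viral internal ribosome entry sites, stood at 84.4 and 73.9 against 90.9 and 99.3 FPKM, and Rpl38 at the values given above. The groups of these genes did not overlap, and the log2 fold changes were -0.53, -0.26 and -0.54. With copies added the groups of Rps25 overlapped, at 915, 656, 902 and 1001 FPKM, and those of Rps19 and Rpl38 did not. Rpl10, which completes the large subunit at its late assembly step, stood at 54.1, 43.3, 54.3 and 51.5 FPKM, and Rps27a, made as a fusion with ubiquitin, at 22.8, 26.5, 21.9 and 31.2 FPKM. The groups of both overlapped.

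The paralog pairs differed in which gene was listed higher. Rps27l, a p53 target in other cells, stood at 146, 93.1, 104 and 131 FPKM, far above the own entry of Rps27, which made up 0.506% of its sum with copies. Their coding sequences were 76.1% identical. Rpl7l1 stood at 34.0 and 33.6 against 40.7 and 42.1 FPKM and Rpl7 at 172, 124, 122 and 130.1 FPKM, with 56.9% identity. Rpl3, at 21.5, 20.5, 23.4 and 24.8 FPKM, Rpl10 and Rpl39 had the paralogs listed at 0, which were 73.9%, 84.8% and 85.3% identical to them.

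The members' fold changes went with the GC content of their transcripts. Spearman's rho between the log2 fold change and GC content was -0.59 across the 76 members and -0.50 across 9981 of all genes above 0 in every line, the 87.1% with a value. Transcripts of the members ran from 41.3% to 60.9% GC. In the 26 members of lowest GC content the median log2 fold change was -0.10, in the middle 25 it was -0.31 and in the highest 25 it was -0.49. A relation with GC content was also seen between the non-metastatic lines: for 368T1 minus 394T4 rho was 0.48 across the members and 0.42 across all genes. Between the metastatic lines, 238N1 minus 482N1, rho was weaker and of opposite signs, at -0.10 and 0.13. All these points share the same 4 libraries, and the part of GC content in the difference between the groups was not tested.

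**Figure D5:**
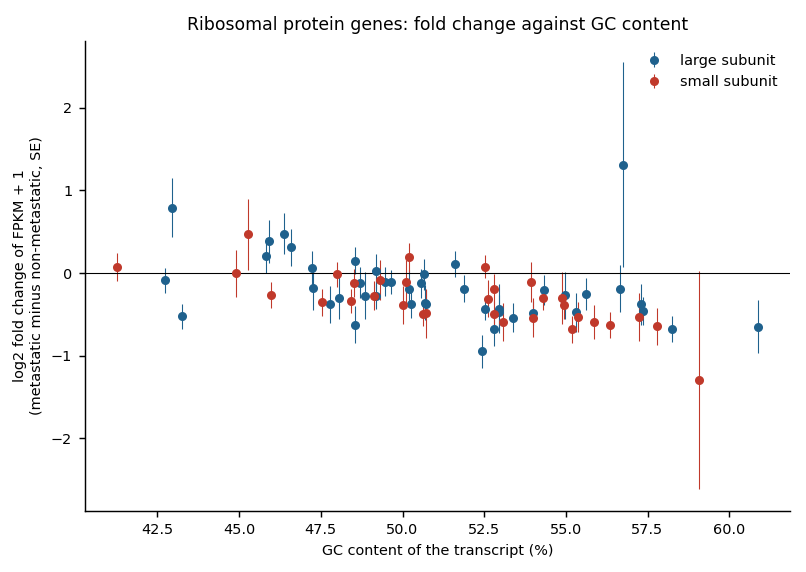
Log2 fold change of FPKM + 1 (metastatic minus non-metastatic, bars show the SE from limma) against the GC content of the transcript in percent, for the 76 ribosomal protein genes above 0 in all lines, with the large subunit in blue and the small subunit in red. Fold changes are lower at higher GC content, with medians of -0.10, -0.31 and -0.49 in the 26 lowest, 25 middle and 25 highest genes.

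A feature that the symbol rule did not use was more frequent in the promoters of these genes than in all promoters. RefSeq promoters (GRCm38.p6, 250 bases before to 50 after the annotated start) were found for 60 of the 82 members. The longest run of C or T within 50 bases of the start had a median of 10 bases in the members and 7 bases in all 27025 promoters, and a run of 10 or more was present in 38 members (63.3%, against 17.998%). The 3 stretches below have the longest runs among the members and are shown with the run in capitals, 5′ to 3′ in the direction of the gene.
Rpl7a: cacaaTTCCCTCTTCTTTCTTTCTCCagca
Rpl27a: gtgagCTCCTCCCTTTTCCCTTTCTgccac
Rpl35: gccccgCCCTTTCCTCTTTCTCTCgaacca
They lie at chr2:26766308-26766337 on the plus strand for Rpl7a, at chr7:116662700-116662729 on the plus strand for Rpl27a, and at chr2:38860635-38860664 on the minus strand for Rpl35 (mm9, by exact match). The motif CCGGAAG of ETS factors, searched on both strands over the 300 bases, was found in 23 members (38.3%, against 9.12% of all promoters). The motif AAGATGG of YY1 was found in 9 (15.0%, against 6.48%), TATAAA in 6 (10%, against 14.2%) and the E-box CACGTG in 5 (8.33%, against 7.24%). A match is only a match of letters. Rpl7a stood at 57.7 and 60.001 against 81.4 and 78.4 FPKM, and Rpl27a at 38.6 and 33.5 against 32.1 and 32.5 FPKM. Rpl35 stood at 28.8, 47.2, 40.7 and 43.8 FPKM. The log2 fold changes of these own entries were -0.43, 0.15 and -0.19. With copies added they were -0.42, -0.21 and -0.13.

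Other genes of translation were placed beside the members. The 4 ribosomal proteins tested outside the symbol rule, among them Fau, Gnb2l1 and Rpl36al, were all negative, with a median of -0.46, and 3 of the 4 had an unadjusted p under 0.05. Fau, a fusion of a ubiquitin-like protein with Rps30, stood at 25.2 and 25.1 against 35.2 and 45.5 FPKM (-0.65, SE 0.19; limma adjusted p = 0.335). Gnb2l1, the small subunit scaffold also called Rack1, stood at 937 and 791 against 1222 and 1174 FPKM (-0.48, SE 0.16; limma adjusted p = 0.340). No gene of any list named here passed limma's test after adjustment. The counts at an unadjusted p under 0.05 in these lists stand beside 8.68% lower and 5.7% higher over all genes.

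The factors that drive translation had fold changes of both signs, with 6 of 9 elongation and 17 of 30 initiation factors negative (46.6% of all genes tested). Of the elongation factors, 4 had an unadjusted p under 0.05 and were lower and 0 were higher (median -0.27). Eif5a, which helps ribosomes over stretches of proline, stood at 613 and 483 against 1001 and 880.0 FPKM (-0.79, SE 0.19; limma adjusted p = 0.332), and its paralog Eif5a2 at 2.47 and 4.79 against 1.26 and 1.61 FPKM (0.88, SE 0.37). Of the initiation factors, 10 were lower and 2 higher at that level (median -0.18). The 2 higher ones were the largest differences, Eif4a2, an RNA helicase, at 43.1 and 78.7 against 23.7 and 30.3 FPKM, and Eif4g3, a scaffold of the cap complex, at 17.2 and 10.2 against 6.78 and 6.004 FPKM. Of 13 other TOP mRNAs, a list that includes Fau and Gnb2l1, 3 were lower and 0 higher (median -0.18).

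Of the 51 assembly factors tested, 16 were lower and 0 higher at an unadjusted p under 0.05 (median -0.22). Mrto4, which acts in large subunit assembly, stood at 16.9 and 20.8 against 50.4 and 33.1 FPKM (-1.08, SE 0.27), and Bop1 of the PeBoW complex at 45.8 and 48.7 against 115 and 80.8 FPKM (-1.02, SE 0.22). Among 13 genes of RNA polymerase I, which transcribes ribosomal RNA, 1 was lower and 1 higher (median -0.31), Polr1e at 12.4 and 14.5 against 20.5 and 21.0 FPKM and Taf1d at 6.70 and 8.07 against 3.19 and 4.17 FPKM. Among 9 carriers of ribosomal proteins, 1 was lower and 2 higher (median -0.10). Grwd1, whose yeast counterpart is a chaperone of Rpl3, stood at 46.5 and 39.6 against 87.0 and 72.4 FPKM, and Ipo7, which imports ribosomal proteins into the nucleus, at 39.0 and 57.1 against 23.8 and 29.98 FPKM. Tsr2, the chaperone of Rps26, stood at 8.77 and 7.30 FPKM in the metastatic lines and was listed at 0 in both others (limma adjusted p = 0.0977). That difference rests on values of 0, which do not show here that a gene was silent.

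None of the 16 genes of the mTORC1 pathway, TOP mRNA control and the Myc family tested had an unadjusted p under 0.05 (median -0.18). Myc, a transcription factor that drives ribosome production, stood at 108 and 73.5 against 124 and 152 FPKM without overlap (-0.62, SE 0.25; limma adjusted p = 0.355), and Mycn at 3.06, 1.02, 0.527 and 1.48 FPKM. Larp1 stood at 31.0, 33.0, 30.8 and 35.2 FPKM. The host genes of small nucleolar RNAs, several of which carry TOP sequences but encode no protein, had a median of 0.47 over 6 genes, with 1 of them higher at that level and 0 lower. Snhg5 stood at 11.4 and 14.1 against 6.45 and 8.31 FPKM (0.72, SE 0.23; limma adjusted p = 0.340), and Snhg7 at 1.94 and 3.39 against 0.626 and 1.68 FPKM (0.78, SE 0.43). Snhg3 lay the other way, at 17.0 and 15.7 against 30.5 and 20.8 FPKM (-0.60, SE 0.24), and Snhg12 overlapped between the groups (0.05, SE 0.26). The difference between these lists and the members was not tested.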

How the data were processed

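RNA from 4 cultured lines was sequenced as paired reads of 100 bp, 1 library per line, per the labels, whose treatment notes speak of tumour samples and whose growth notes speak of cultured cells. The submitters' processing notes name TopHat (no version) and mm9. The tool that made the gene values is not given in the sources used here. Per the file headers, the deposited unit is FPKM. The table held 37527 entries with 34147 symbols, and 99.0% of the gene IDs were found in GENCODE vM1, whose assembly, NCBIM37, is that of mm9. The genotype labels name a further allele, which is not reported here, and neither are some genes that the rules below name.

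The test was limma 3.58.1 (R 4.3.3) with a variance trend on log2(FPKM + 1), two-sided, over the 12425 genes with a mean of at least 1 FPKM, with Benjamini-Hochberg adjustment over all of them. This scale understates changes of low genes. The limma script was tested on simulated data. Copies were found with BLAST 2.17.0, as alignments outside member genes, and were matched to an entry by an overlap of at least 50% of both. The sum of a gene and its copies adds their FPKM. GC content was that of the annotated transcript. Summaries used Python 3.11.15.

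Members named were fixed well-known genes and paralog pairs, the 6 highest and 6 lowest, up to 8 with the largest fold change each way without overlap, the 6 most variable and those at 0 in some lines. Of each other list the 2 largest changes were named, or others chosen after their values were seen. Members, lists and rules were chosen with earlier results of these data known. Adding copies was chosen after seeing the data.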

Additional observations from a re-analysis of the deposited data

How the results depend on the processing

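Limma called 0 members past the adjusted threshold under each of the 18 alternatives, which changed the pseudocount, the filter on low values, the scaling, the fit, the handling of 0 and of copies, and left out each line. The median log2 fold change of the members was -0.0733 with scaling to the protein-coding sum, 0.0662 with centring on the members' own median, which sets it near 0 by construction, and -0.0748 with copies added and that scaling. Leaving out each line gave -0.41 to -0.15, and the other alternatives -0.38 to -0.15. At an unadjusted p under 0.05, quantile normalization gave 7 members lower and 0 higher (9.09% and 0%, against 7.77% and 5.18% of all genes), near the share of all genes for the lower calls. Centring on the members' median gave 0 lower and 4 higher (1.75% and 11.3% of all genes), in place of 15 and 0. The share of the protein-coding FPKM sum differed by 0.153 percentage points in the opposite direction when all entries were the denominator, and the cause was not tested. Leaving out each line gave differences of -0.497 to -0.0172 points, as values with no test. With members at 0 left out, p reached its smallest possible value of 0.333. Of 42 named members, the fold change changed sign in 7 with copies added, 5 with quantile normalization and 2 to 6 with a line left out. Scaling to 1 sum or median shifts all genes alike and so turns the sign of members near 0 by construction. No paired analysis was possible because the labels give no replicate numbers shared between the groups. Depth is unknown.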
